A study of Mus musculus with 4 samples.

Results

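The genes described here are 10 transcription factor genes that mark successive waves of neurons: Onecut1, Onecut2, Onecut3, Pou2f2, Zfhx2, Zfhx3, Zfhx4, Nfia, Nfib and Nfix. They are 10 of the 32285 genes in the count matrices, each found as 1 row by its symbol, and the list was chosen by gene name and selected on earlier results of the same 4 libraries, with no threshold on any value. The adjusted p-values below therefore place each gene in a fit of all genes and are not independent evidence that the list as a whole moved. The libraries hold single cells from mouse embryos of strain Swiss-Webster at E10.5, staged at 34 to 36 somites. Control embryos (2 libraries) carried Pax2-Cre and Rosa26GFPf/+, and conditional knockout embryos (cKO, 2 libraries) carried in addition 2 floxed alleles each of Tbx2 and Tbx3, T-box transcription factors of the otic vesicle. Every library came from the otic vesicle, the cochleovestibular ganglion (CVG) and nearby neural tube and pharyngeal tissue, sorted for GFP, a marker of cells descended from those with Pax2-Cre activity, and against the dead-cell stain DAPI. The labels name 3 control and 2 cKO embryos and pooled vesicles, without their division among libraries, so p-values measure only the spread between libraries, which may be technical.

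As background, neurons of the spinal cord, brain and retina follow a shared temporal code. Early-born neurons express the Onecut homeodomain factors, neurons born next express the POU factor Pou2f2 and the zinc finger homeodomain factors Zfhx2, Zfhx3 and Zfhx4, and the latest express the nuclear factor I genes Nfia, Nfib and Nfix together with Neurod2 and Neurod6. Onecut factors also act in the identity of motor neurons, and NFI factors also act in glia and in non-neural tissue. The question asked was whether cKO neurons sat earlier in the order from Onecut to Nfi.

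Pou2f2, Zfhx2 and Zfhx3 were lower in cKO neural tube neurons, as described below, and so was Zfhx4. For Pou2f2, Zfhx2 and Zfhx3 the 250 bases before one RefSeq start (GRCm38.p6, which is mm10) are printed, 5′ to 3′ on the gene's strand. RefSeq's promoter table held an entry for 6 of the 10 members, and Zfhx4 was not among them. Capitals mark matches on either strand to the NFI core TTGGC or to the ONECUT core in its form ATTGAT or ATCGAT.
Pou2f2, chr7:25132461-25132710, minus strand: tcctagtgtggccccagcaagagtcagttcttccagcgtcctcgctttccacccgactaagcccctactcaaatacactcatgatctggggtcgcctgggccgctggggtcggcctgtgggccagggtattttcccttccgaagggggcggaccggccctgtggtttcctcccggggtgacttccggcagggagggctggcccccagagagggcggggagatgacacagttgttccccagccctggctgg
Zfhx2, chr14:55092049-55092298, minus strand: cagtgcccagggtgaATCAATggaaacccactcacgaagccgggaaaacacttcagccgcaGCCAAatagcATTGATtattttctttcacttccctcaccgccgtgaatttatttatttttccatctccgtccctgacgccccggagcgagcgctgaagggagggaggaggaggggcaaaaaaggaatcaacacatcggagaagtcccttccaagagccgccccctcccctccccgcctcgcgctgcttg
Zfhx3, chr8:108714394-108714643, plus strand: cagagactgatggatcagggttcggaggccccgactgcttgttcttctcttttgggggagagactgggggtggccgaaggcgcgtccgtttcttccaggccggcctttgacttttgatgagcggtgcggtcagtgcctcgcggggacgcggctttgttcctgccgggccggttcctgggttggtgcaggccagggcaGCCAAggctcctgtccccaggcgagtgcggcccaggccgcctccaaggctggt
The Zfhx2 window held 2 matches to ATTGAT and 1 to TTGGC, the Zfhx3 window 1 match to TTGGC, and the Pou2f2 window no match to these letters. Of 32851 RefSeq windows of the same length, 6.72% held ATTGAT, 0.728% ATCGAT and 41.5% TTGGC. The T-box core GGTGTG was in 16.3% of all windows and in none of these 3. These are descriptions of letters in short windows at single annotated starts.

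In GENCODE vM21 (mm10), Onecut1 lies at chr9:74861921-74891781 and Onecut3 at chr10:80494835-80517276, both on the plus strand. Pou2f2 lies at chr7:25087344-25179726 on the minus strand, Zfhx2 at chr14:55060262-55092324 on the minus strand, Zfhx3 at chr8:107942644-108961630 and Zfhx4 at chr3:5218526-5415857 on the plus strand. Nfia lies at chr4:97772734-98118874 on the plus strand, Nfib at chr4:82290173-82705750 and Nfix at chr8:84699876-84800344 on the minus strand. The 3 windows above lie inside these spans, so the RefSeq starts used are not the outermost GENCODE starts, and for Zfhx2 the window reaches almost to the gene's outer end. An antisense gene, Zfhx2os, overlaps Zfhx2 and had 58 UMIs in all kept cells, against 14720 for Zfhx2. Nfix had 57 UMIs (unique molecular identifiers, the counted molecules) in all kept cells and passed the filter on low counts in no group tested.

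Between 106769747 and 128205192 UMIs were counted per library, and 14399 of 19567 barcodes were kept as cells, with 3220 to 3869 per library and a median of 26970.0 to 30081 UMIs. Library pairs shared 2 to 8 barcodes, of which 1 to 5 were among kept cells. Ganglion neurons (placodal neurons of the CVG lineage, marked by Neurod1, Isl1 and Pou4f1) numbered 633, 722, 314 and 375 cells in control 1, control 2, cKO 1 and cKO 2. Epibranchial neurons, marked by Phox2a, numbered 294, 279, 219 and 353, and neural tube neurons numbered 87, 135, 112 and 85. Hand2, on the epibranchial list, had no UMI in either placodal lineage. Tbx3 in ganglion neurons stood at 105 and 100.1 CPM in controls and 33.3 and 26.4 CPM in cKO, and Tbx2 at 18.5 and 20 CPM in controls and 18.9 and 22.6 CPM in cKO. In early ganglion neurons, defined below, Tbx2 fell from 30.6 and 42.2 CPM to 23.4 and 27.2 CPM (-0.51, adjusted p = 0.0358, edgeR). In neural tube neurons Tbx2 had 1 to 5 UMIs and Tbx3 0 to 3 UMIs per library, so the deletion could not be read there. The labels do not give the floxed exons, and a 3′ tag outside them would not show a deletion. In all 12 cell groups fitted, Ubb was 2.79 to 3.21 higher (log2) in cKO. The median mitochondrial share of UMIs was 2.41% and 2.96% in control libraries and 1.31% and 1.38% in cKO libraries. These differences move with genotype in every result below, and their part in the results was not tested.

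In neural tube neurons, the factors of the middle of the order were lower in cKO libraries while the Onecut genes did not pass the test. Pou2f2, Zfhx2, Zfhx3 and Zfhx4 fell, and no member rose. These are 4 of the 7 members that passed the filter on low counts. Of the 9426 genes tested there with edgeR's quasi-likelihood test on UMI sums per library (Benjamini-Hochberg adjusted p under 0.05), 2.84% fell in cKO.

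Pou2f2 stood at 26.1 and 99.9 CPM in control 1 and control 2 and at 8.95 and 6.43 CPM in cKO 1 and cKO 2. CPM are UMI counts scaled to each library's total in that group, with TMM factors. Both cKO libraries lay below both controls, which differed widely from each other, and the log2 change was -2.99 ± 0.46 (SE, adjusted p = 0.000504). Zfhx3, a large factor of neuronal differentiation, stood at 46.3 and 99.9 CPM in control 1 and control 2 and at 14.1 and 9 CPM in cKO 1 and cKO 2. The genotypes did not overlap, control 2 was again the highest, and the change was -2.61 ± 0.31 (SE, adjusted p = 2.96e-05). Zfhx2 stood at 54.6 and 86.3 CPM in control 1 and control 2 and at 21.2 and 7.71 CPM in cKO 1 and cKO 2. Its lowest value was in cKO 2, the groups did not overlap, and the change was -2.19 ± 0.28 (SE, adjusted p = 6.74e-05). Zfhx4 stood at 98 and 179 CPM in control 1 and control 2 and at 47.6 and 44.3 CPM in cKO 1 and cKO 2. The cKO libraries were close to each other and below both controls, with a change of -1.60 ± 0.21 (SE, adjusted p = 7e-05). DESeq2 on the same sums gave adjusted p = 0.0605 for Pou2f2 and 0.059 for Zfhx2, which ends those calls, and without doublet removal Pou2f2 had adjusted p = 0.0539 (edgeR). All 4 calls held when any 1 library was left out, with Pou2f2 at -1.67, Zfhx3 at -1.91, Zfhx2 at -1.80 and Zfhx4 at -1.08 (log2) without control 2.

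Onecut2, a homeodomain factor of early-born neurons, stood at 1755 and 1662 CPM in control 1 and control 2 and at 1505 and 1504 CPM in cKO 1 and cKO 2. The cKO libraries were lower without overlap, by little: the change was -0.18 ± 0.078 (SE, adjusted p = 0.184). Onecut1 stood at 285 and 268 CPM in control 1 and control 2 and at 207 and 259.6 CPM in cKO 1 and cKO 2, and its change was -0.25 ± 0.12 (SE, adjusted p = 0.231). Onecut3 stood at 132 and 98.7 CPM in control 1 and control 2 and at 100.3 and 111 CPM in cKO 1 and cKO 2, with overlapping groups and a change of -0.12 ± 0.14 (SE, adjusted p = 0.703). Of the Nfi genes, Nfia had 3, 5, 7 and 4 UMIs in control 1, control 2, cKO 1 and cKO 2. Nfib had 4 UMIs in control 1 and none in the others, and Nfix had none. A count of 0 allows up to 3 UMIs per library, so at this depth neither genotype could be placed at the Nfi end of the order.

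**Figure D1:**
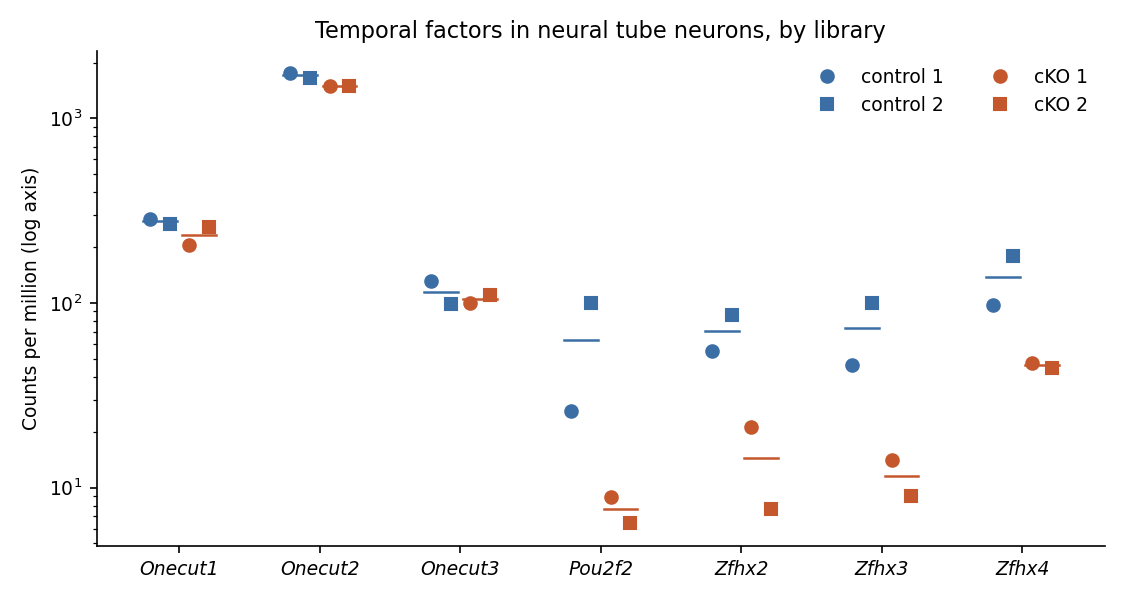
CPM (log axis) of the 7 members that passed the filter in neural tube neurons, 1 point per library (blue control, orange cKO) and a bar for each genotype's mean. The Onecut points of both genotypes lie close together, and for Pou2f2, Zfhx2, Zfhx3 and Zfhx4 both cKO points lie below both control points.

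These neurons formed 2 clusters, each with 6 of 15 neural tube neuron markers. The cluster with Robo3 and Lbx1 among its leading genes held 41.4% and 43% of the control 1 and control 2 cells and 25% and 23.5% of the cKO 1 and cKO 2 cells. The other cluster, led by En1 and Otp, held the rest, and no test of these shares was made. In the neural tube neuron marker list, 7 of 15 genes were measured, Slc17a6 rose and Lhx1 and Gad2 fell, with a summed level of 903 to 1207 CPM in controls and 708 to 755 CPM in cKO. Evx1, Lmx1b and Tal1 had no UMI. Ganglion markers summed to 1729 to 1739.9 CPM in controls and 1143 to 1267 CPM in cKO, with Neurod1, Nhlh1, Nhlh2 and Insm1 lower. Neural tube progenitor markers summed to 93.7 to 104 CPM in controls and 58.7 to 73.5 CPM in cKO, with 1 of 4 measured lower, and neural crest and glia markers to 165 to 189 CPM in controls and 107 to 120.4 CPM in cKO, with 1 of 2 measured lower. The part of this makeup in the results was not tested. The members were also fitted in each cluster alone, a choice made after seeing the data.

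In the Robo3 and Lbx1 cluster, Pou2f2 had 31 and 198 UMIs in controls and 1 and 1 in cKO, and its change was -5.21 (adjusted p = 5.19e-05). Zfhx2 had 34 and 84 UMIs in controls and 3 and 0 in cKO, a change of -3.95 (adjusted p = 2.29e-05). With so few cKO molecules, these fitted sizes depend on the prior count and only their direction is read. Zfhx3 changed by -2.78 (adjusted p = 3.75e-05) and Zfhx4 by -0.81 (adjusted p = 0.0159) there, on edgeR's test. Onecut2 was at 1727 and 1504 CPM in controls and 1888 and 1807 CPM in cKO in this cluster, a change of 0.21 (adjusted p = 0.44). In the En1 and Otp cluster, Zfhx4 was at 13.5 and 81.5 CPM in controls and 7.26 and 3.49 CPM in cKO with control 1 well below control 2, and its change was -2.97 (adjusted p = 0.00025). The changes of Zfhx2, Zfhx3 and Pou2f2 were -1.94 (adjusted p = 1.79e-05), -1.53 (adjusted p = 0.00916) and -1.22 (adjusted p = 0.0473) on edgeR's test. The Onecut genes passed there too, each in the same direction. Onecut2 was at 1815 and 1809.7 CPM in controls and 1265 and 1352 CPM in cKO, a change of -0.42 (adjusted p = 0.00139), while Onecut1 changed by -0.44 (adjusted p = 0.0234) and Onecut3 by -0.54 (adjusted p = 0.0292). In these fits 3.05% (En1 and Otp) and 1.32% (Robo3 and Lbx1) of tested genes fell. Whether the Onecut changes differ between the clusters was not tested.

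The neural tube neurons of both genotypes overlapped in stage as scored here. The stage score is the log2 level of 18 maturation genes such as Stmn2 and Nefl less that of 16 progenitor and early neuron genes such as Neurog1 and Dll1, with no member among them, and its median was 5.97 and 5.79 in controls and 5.92 and 6.02 in cKO. The score is not independent of genotype, since Nhlh1 and Insm1, among its early genes, were themselves lower in cKO here. Splitting the cells at the median score left the 4 genes lower on both sides. Among the younger cells (1.4% of genes fell), Pou2f2 changed by -3.22 (adjusted p = 0.000608), Zfhx3 by -2.36 (adjusted p = 3.49e-05), Zfhx2 by -2.17 (adjusted p = 0.000237) and Zfhx4 by -2.13 (adjusted p = 7.91e-05). Among the older cells (1.86% of genes fell), the changes were -2.24 (adjusted p = 0.00377), -2.83 (adjusted p = 0.000648), -2.01 (adjusted p = 0.00165) and -1.21 (adjusted p = 0.000915) in the same order of genes. No Onecut gene passed on either side.

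A smaller share of cKO neural tube neurons held a Pou2f2 molecule. After thinning each cell to 10000 UMIs, which kept 78, 120, 98 and 76 cells, a Pou2f2 UMI was found in 21.8% and 32.5% of control 1 and control 2 cells and 6.12% and 2.63% of cKO 1 and cKO 2 cells. The 95% Wilson intervals ran from 14.1% to 32.2%, 24.8% to 41.3%, 2.84% to 12.7% and 0.725% to 9.1%, and they cover counting error only. Unthinned, the shares were 28.7% and 45.9% of control 1 and control 2 cells and 12.5% and 10.6% of cKO 1 and cKO 2 cells. In otic epithelium, taken as background, the thinned share was 1.11% to 1.59%, with median depths of 29268 to 37615 UMIs against 17923 to 19367 in the neurons. The cKO 2 interval reaches that background and the cKO 1 interval lies above it. A Zfhx4 UMI was found in 46.2% and 61.7% of control 1 and control 2 cells and 20.4% and 15.8% of cKO 1 and cKO 2 cells after thinning, and an Onecut2 UMI in 99.2% to 100% of cells in every library.

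A further cluster of 213 cells with Uncx and Lhx5 among its leading genes carried markers of neural tube progenitors and neurons alike and was left unnamed, so it entered no fit. Pou2f2 was at 102 and 229 CPM in its control cells and 20.2 and 54.2 CPM in its cKO cells. Zfhx3 was at 185 and 186 CPM in controls and 64.9 and 30.1 CPM in cKO. Onecut2 was at 989 and 1038 CPM in controls and 678 and 946 CPM in cKO. Only 20 cells came from cKO 2, and no test was run. A second unnamed cluster with markers of both kinds, with Lhx9 and Barhl1 among its leading genes, held 8, 31, 15 and 1 cells. Pou2f2 overlapped there, at 354 and 512 CPM in controls and 179.9 and 588 CPM in cKO, the last from 1 cell.

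Ganglion neurons showed another picture, in which Onecut and Nfia were both lower in cKO cells. Across all stages, 7 of 9 measured members fell (Onecut1, Onecut2, Onecut3, Pou2f2, Zfhx2, Zfhx4 and Nfia) and none rose, where 19% of 12931 genes fell. The members' median log2 change was -1.59, against -0.018 for all genes tested. The share of late cells, above the equal-weight median of the stage score, was 55.6% and 68.3% in control 1 and control 2 and 26.1% and 23.5% in cKO 1 and cKO 2. With 2 libraries a genotype, exact permutation of the libraries could not reach the 0.05 threshold, so the share was not tested. Onecut3 rested on 12, 50, 0 and 2 UMIs in control 1, control 2, cKO 1 and cKO 2, and without cKO 1 its adjusted p was 0.0601. The Zfhx4 change of -0.51 no longer passed without control 2 or without cKO 1, and it ran from -0.72 to -0.32 over the settings. Early and late cells were then fitted apart.

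In early ganglion neurons, 7 of 8 measured members fell, where 14% of genes fell. Onecut1 stood at 99.1 and 85 CPM in control 1 and control 2 and at 21.9 and 19.1 CPM in cKO 1 and cKO 2. The genotypes were far apart, with a log2 change of -2.17 ± 0.11 (SE, adjusted p = 6.84e-06). Onecut2 stood at 45.3 and 43.5 CPM in control 1 and control 2 and at 11.7 and 9.57 CPM in cKO 1 and cKO 2, likewise without overlap, and changed by -2.06 ± 0.13 (SE, adjusted p = 1.76e-05). Nfia, at the late end of the order, stood at 13.3 and 22.5 CPM in control 1 and control 2 and at 2.37 and 3.81 CPM in cKO 1 and cKO 2. Control 2 was the highest and both cKO libraries the lowest, and the change was -2.45 ± 0.30 (SE, adjusted p = 0.000748). Pou2f2 was at 7.18 and 9.42 CPM in controls and 1.66 and 2.68 CPM in cKO and fell, at -1.85 (adjusted p = 0.00198). The Zfhx genes moved less: Zfhx2 changed by -0.80 (adjusted p = 0.00248), Zfhx4 by -0.72 (adjusted p = 0.00638) and Zfhx3 by -0.57 (adjusted p = 0.00572). Zfhx3 had adjusted p = 0.0507 without cKO 1. Nfib was at 7.42 and 14.6 CPM in controls and 6.51 and 7.41 CPM in cKO, a change of -0.62 (adjusted p = 0.134) that did not pass. The summed ganglion markers were at 3571 to 3733 CPM in controls and 2240.2 to 2254 CPM in cKO, with 7 of 12 lower (Neurod1, Isl1 and Pou4f1 among them) and Neurog1, a gene of newborn placodal neurons, higher. Otic epithelium markers summed to 699 to 718 CPM in controls and 699.8 to 734 CPM in cKO, with 4 of 12 higher and 2 lower, mesenchyme markers to 1.84 to 2.08 CPM in controls and 3.3 to 3.97 CPM in cKO, and neural crest and glia markers at 32.2 to 48.7 CPM in controls and 16.9 to 18.2 CPM in cKO. The median stage score was -1.35 and -1.18 in controls and -1.32 and -1.37 in cKO in these early cells, and the part of these markers in the decreases was not tested.

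In late ganglion neurons, 4 of 7 measured members fell, where 9.35% of genes fell. Onecut2 stood at 213 and 253 CPM in control 1 and control 2 and at 80.3 and 82.3 CPM in cKO 1 and cKO 2, with no overlap and a change of -1.52 ± 0.12 (SE, adjusted p = 0.000285). Zfhx2 stood at 61.3 and 65.4 CPM in control 1 and control 2 and at 24.8 and 26.2 CPM in cKO 1 and cKO 2, and the change was -1.31 ± 0.13 (SE, adjusted p = 0.000779). Nfia, at 13.3 and 19.8 CPM in controls and 6.79 and 5.96 CPM in cKO, changed by -1.37 (adjusted p = 0.0162). Zfhx4, at 29.8 and 37.4 CPM in controls and 20 and 23 CPM in cKO, changed by -0.65 (adjusted p = 0.0353). Onecut1 was at 159.9 and 154 CPM in controls and 143 and 101 CPM in cKO, with cKO 2 well below the rest and no overlap, and its change of -0.36 (adjusted p = 0.114) did not pass, though it did without cKO 1 (adjusted p = 0.0439) and without the filter on low counts (0.00715). Pou2f2 (-1.33, adjusted p = 0.0843) and Zfhx3 (-0.34, adjusted p = 0.12) did not pass either. The count of 4 was 2 without cKO 2 and 6 without control 1. The Nfia call was lost with 3 stage groups (adjusted p = 0.113), without cKO 1 (adjusted p = 0.101) or cKO 2 (0.106), and the Zfhx4 call with DESeq2 (0.123), without control 2 (0.12), cKO 1 (0.198) or cKO 2 (0.104).

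Ganglion markers in late cells summed to 4419 to 4531 CPM in controls and 3472 to 3669.8 CPM in cKO, with 6 of 12 lower (Isl1 and Pou4f1 among them) and 3 higher (Neurog1 among them). Hindbrain motor neuron markers summed to 61.7 to 77.1 CPM in controls and 20 to 23.6 CPM in cKO, with 1 measured gene, Isl2, lower. Neural tube progenitor markers summed to 22.6 to 30.9 CPM in controls and 33.1 to 44.9 CPM in cKO, with 2 of 3 measured higher, and the part of these markers in the results was not tested. The late group was not alike in the libraries, since its median stage score was 2.44 and 2.69 in controls and 0.89 and 0.89 in cKO, and 2 of the 4 ganglion clusters held at most 13 cells in each cKO library, against 99 or more in each control. Limited to the clusters with at least 20 cells in every library, a choice made after seeing the data, Onecut2 changed by -1.62 (adjusted p = 1.07e-05) and Nfia by -1.57 (adjusted p = 0.00821) in late cells. Onecut1 then passed at -0.85 (adjusted p = 0.003), and so did Pou2f2 at -1.60 (adjusted p = 0.0182). Zfhx2 (-0.52, adjusted p = 0.0929) and Zfhx4 (-0.45, adjusted p = 0.185) no longer passed.

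**Figure D2:**
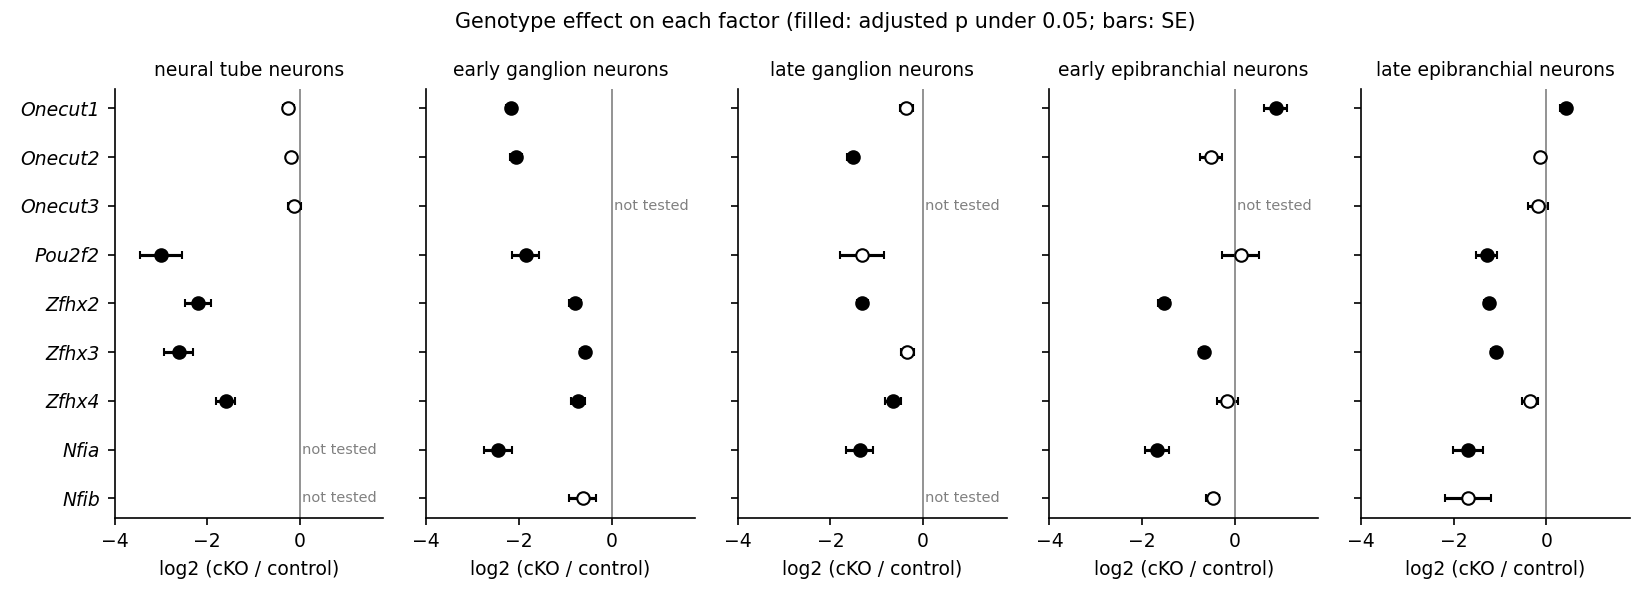
Log2 change (cKO over control) of each member in 5 groups of neurons, with the SE as a bar. Filled points passed at an adjusted p under 0.05, open points did not, and members removed by the filter on low counts are marked as not tested. Zfhx2 is filled and below 0 in all 5 panels, and Nfia in the 4 panels where it was tested.

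The members were also followed along the stage score, which ranks cells of 1 embryonic day by maturity and does not date their birth. Some genes of the score moved with genotype themselves. Neurog1, an early gene, was higher and Elavl4, a maturation gene, lower in cKO at both stages of both placodal lineages. In the youngest of 5 stage bins of ganglion neurons, Onecut2 was at 18.5, 18, 4.66 and 5.29 CPM per total UMIs in control 1, control 2, cKO 1 and cKO 2. In the oldest bin it was at 283, 298, 150.5 and 208 CPM. Onecut2 was thus higher in the older bins in every library, and both cKO libraries were below both controls in 5 of 5 bins. Onecut1 was at 61.5, 55.6, 14.9 and 5.81 CPM in the youngest bin, 176, 202, 46.1 and 57.4 CPM in the middle bin and 164, 141, 174 and 127 CPM in the oldest. Its cKO values lay below both controls in the 3 youngest bins and overlapped the controls in the 2 oldest. The oldest bin held 214, 353, 24 and 18 cells, so its cKO values rest on few cells.

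Pou2f2, Zfhx2, Zfhx3, Zfhx4 and Nfia were below both controls in both cKO libraries in 5 of 5 bins of ganglion neurons, with no test. The share of all genes that met this rule in the bins was not counted, here or for the Onecut genes above. Nfia was at 15.2, 29.2, 2.91 and 4.89 CPM in the middle bin. Zfhx2 was at 26.2, 26.9, 16.3 and 14 CPM in the youngest bin and 82, 77.5, 30.7 and 23.3 CPM in the oldest, so that the controls were higher in the oldest bin by more than the cKO libraries were. Nfib was highest in the youngest bin in every library, at 9.07, 18, 9.04 and 9.25 CPM, and was at 0.404, 1.58, 1.46 and 0 CPM in the oldest. Averaged over the 5 bins with equal weight, Onecut2 was at 122 and 131 CPM in controls and 52 and 62.1 CPM in cKO.

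**Figure D3:**
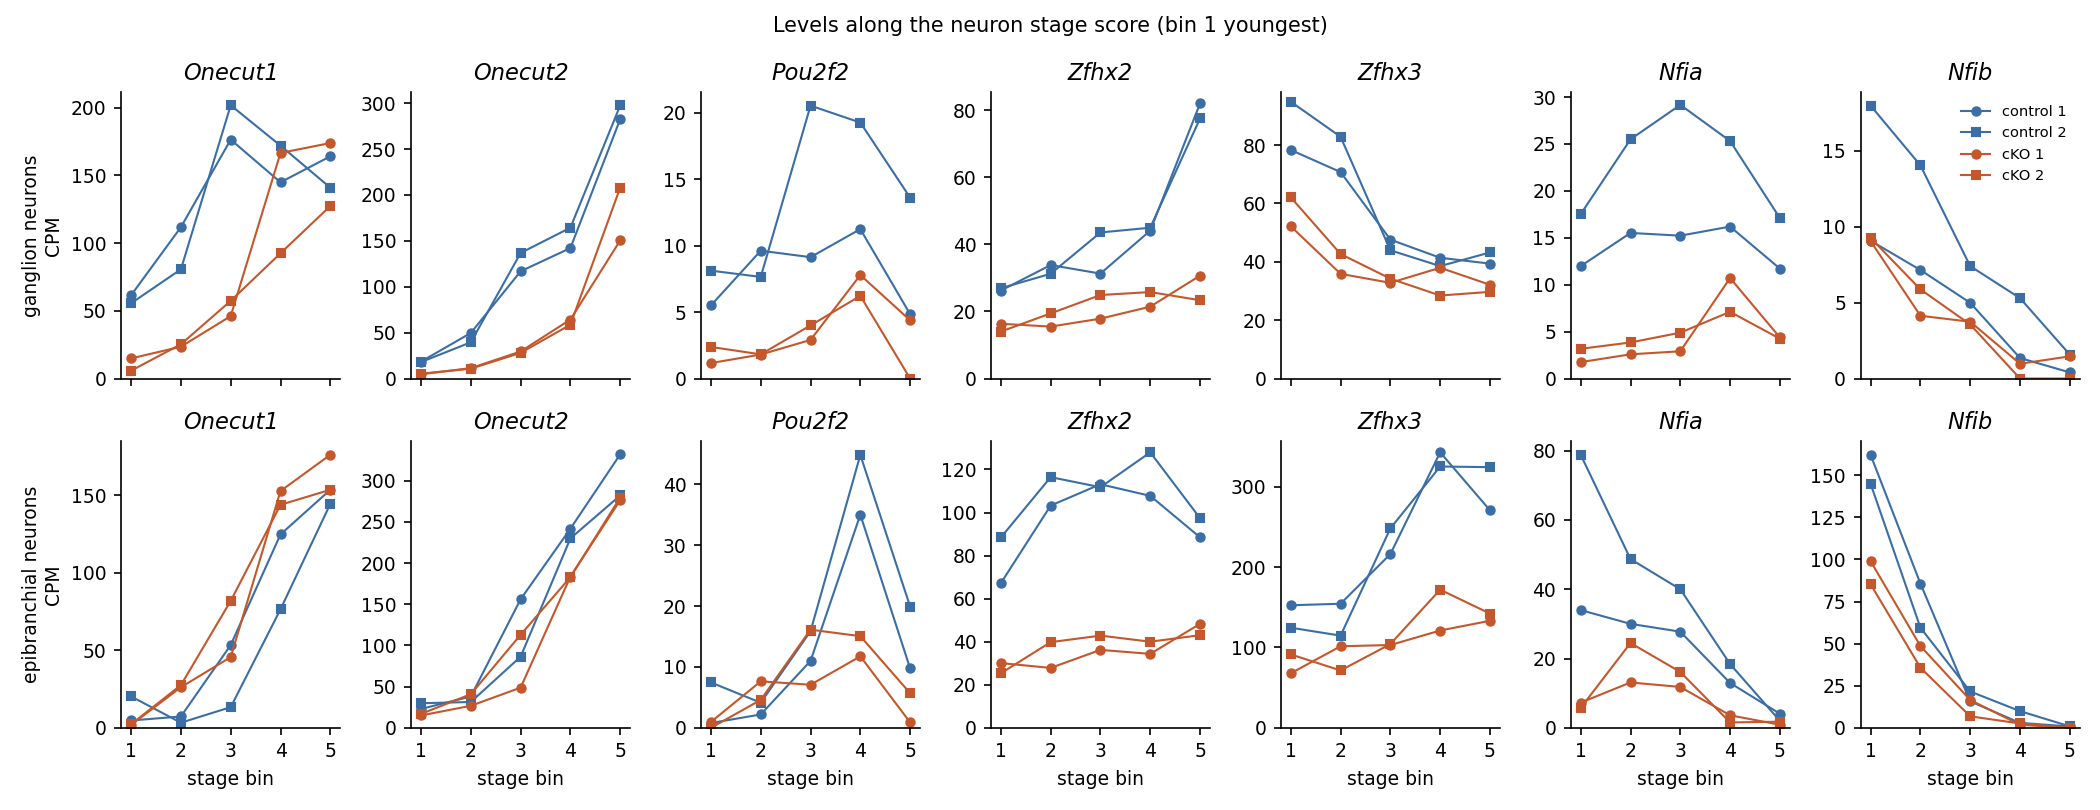
CPM of 7 members in 5 bins of the stage score (bin 1 youngest) in ganglion neurons (upper row) and epibranchial neurons (lower row), 1 line per library. Onecut2 is higher and Nfib lower in bin 5 than in bin 1 in both lineages, and the cKO lines of Zfhx2 and Nfia run below the control lines in every bin.

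In epibranchial neurons, the placodal neurons of the facial, glossopharyngeal and vagal ganglia, Zfhx2, Zfhx3 and Nfia were lower in cKO cells at both stages. Onecut1 passed as higher in the early and in the late group, by calls that other settings lost. Across all stages, 5 of 9 measured members fell, where 12.6% of 12781 genes fell. Without control 2 the count was 2, and genes called over the table went from 3116 to 137. The 5 were Zfhx2 (-1.41, adjusted p = 0.00071), Pou2f2 (-1.40, adjusted p = 0.00661), Nfia (-1.21, adjusted p = 0.00975), Zfhx3 (-1.15, adjusted p = 0.000988) and Onecut2 (-0.70, adjusted p = 0.0192). Onecut2 had adjusted p = 0.149 without control 1 and 0.0906 without control 2, and without control 2 Pou2f2 was at 0.0742 and Nfia at 0.0813. The late share was 60.2% and 60.6% in control 1 and control 2 and 32% and 42.8% in cKO 1 and cKO 2.

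Among early epibranchial neurons, 3 of 8 measured members fell, where 5.29% of genes fell. Zfhx2 stood at 91.3 and 104 CPM in control 1 and control 2 and at 31.6 and 35.9 CPM in cKO 1 and cKO 2. The groups were clearly apart, with a change of -1.52 ± 0.13 (SE, adjusted p = 4.16e-05). Nfia stood at 31 and 54.5 CPM in control 1 and control 2 and at 10.2 and 15.5 CPM in cKO 1 and cKO 2, and changed by -1.68 ± 0.26 (SE, adjusted p = 0.00224). Zfhx3, at 156 and 134 CPM in controls and 93.2 and 90.9 CPM in cKO, changed by -0.66 (adjusted p = 0.00372). The 1 member that rose, where 4.99% of genes rose, was Onecut1, at 13.4 and 9.82 CPM in controls and 17.8 and 25.5 CPM in cKO and a change of 0.88 (adjusted p = 0.0394). Its adjusted p was 0.159 with DESeq2, and with edgeR 0.377 without doublet removal and 0.216 with the stage from maturation genes alone. The call was also lost without control 2 or without cKO 2, and in the youngest of 3 stage groups the change was -0.0038. Nfib, at 94.9 and 77.6 CPM in controls and 69.9 and 54.8 CPM in cKO, did not pass (-0.48, adjusted p = 0.0534).

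Among late epibranchial neurons, 4 of 9 measured members fell, where 5.97% of genes fell. Zfhx3 stood at 285 and 311 CPM in control 1 and control 2 and at 127 and 151 CPM in cKO 1 and cKO 2, without overlap, and changed by -1.09 ± 0.10 (SE, adjusted p = 0.000527). Zfhx2 stood at 94.9 and 106 CPM in control 1 and control 2 and at 43.2 and 41.4 CPM in cKO 1 and cKO 2, and changed by -1.25 ± 0.11 (SE, adjusted p = 0.00025). The cKO libraries of both genes were close to each other. Pou2f2, at 20.1 and 27.8 CPM in controls and 7.53 and 10.8 CPM in cKO, changed by -1.28 (adjusted p = 0.0107). Nfia, at 10 and 12.2 CPM in controls and 5.15 and 2.32 CPM in cKO, changed by -1.69 (adjusted p = 0.0136). Onecut1 rose here as well, where 6.16% of genes rose, from 125 and 102 CPM to 157 and 147 CPM, by 0.42 (adjusted p = 0.0377). That call was lost without control 2 and with 3 stage groups (edgeR's adjusted p = 0.0611). Onecut2, at 259.9 and 234 CPM in controls and 215 and 234 CPM in cKO, did not pass (-0.14, adjusted p = 0.351), nor did Nfib at 2.94 and 5.59 CPM in controls and 0.793 and 1.36 CPM in cKO (-1.70, adjusted p = 0.0519). Epibranchial markers summed to 2245 to 2322 CPM in controls and 2172 to 2297 CPM in cKO in late cells, where Phox2a and Tlx2 rose and Prph and Ctnna2 fell, and to 2124 to 2364 CPM in controls and 2813 to 2823 CPM in cKO in early cells, where Phox2a and Neurog2 rose and Ctnna2 and P2rx3 fell.

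Along the stage score of epibranchial neurons, Nfib was at 162, 145, 98.9 and 85.2 CPM in the youngest bin and 0.814, 0.867, 0 and 0 CPM in the oldest. Nfia was also lower in the oldest bin than in the youngest in every library, going from 34, 78.8, 7.27 and 5.76 CPM to 4.07, 2.02, 0.894 and 1.78 CPM. Onecut2 ran the other way, from 22.9, 29.8, 15 and 16.9 CPM to 332, 282, 276 and 279 CPM. Nfib was thus highest in the youngest bin and Onecut2 in the oldest in all 4 libraries. Nfia was highest in the youngest bin in both controls and in the second bin in both cKO libraries. Pou2f2 was highest in the fourth bin in both controls, at 35 and 44.9 CPM, where cKO 1 and cKO 2 were at 11.8 and 15.1 CPM. Onecut1 was at 4.74, 20.2, 1.94 and 2.3 CPM in the youngest bin, with both cKO libraries below both controls. In 3 of 5 bins both cKO libraries had more Onecut1 than both controls. The oldest bin is among them by a hair, with cKO 2 at 153.601 CPM and control 1 at 153.592 CPM. Zfhx2, Zfhx3 and Nfia were below both controls in both cKO libraries in 5 of 5 bins. The share of all genes that met these rules was not counted.

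Over the 5 separate groups of neurons (neural tube, early and late ganglion, early and late epibranchial), Zfhx2 fell in 5 of 5 and Nfia in the 4 where it was tested. Zfhx3 fell in 4, Pou2f2 and Zfhx4 in 3 and Onecut2 in 2 of 5. Onecut1 fell in 1 and rose in 2, Onecut3 passed in neither of 2 and Nfib in none of 3 tested. The share of all genes that fell in as many groups was not counted.

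The genotype effect differed between the placodal lineages for 4 of 9 measured members, in an edgeR interaction test over the same 4 libraries in which 4.95% of 13523 genes passed. The Onecut1 effect in ganglion neurons less that in epibranchial neurons was -1.51 ± 0.21 (SE, adjusted p = 0.00643), and for Onecut2 it was -1.86 ± 0.24 (SE, adjusted p = 0.005). Both changes were more negative in ganglion neurons. Zfhx3 had a difference of 0.89 ± 0.086 (SE, adjusted p = 0.00156), with the more negative change in epibranchial neurons. Nfia differed by -0.89 ± 0.20 (SE, adjusted p = 0.0443). That call was lost with DESeq2 (adjusted p = 0.555), and in edgeR with RLE size factors (adjusted p = 0.0531) and with the replicate block (adjusted p = 0.0534). It was also lost without control 2, cKO 1 or cKO 2. Without cKO 2 the count was 2 of 9. Onecut2 had adjusted p = 0.0524 without cKO 2. For Zfhx2 the difference was 0.053 ± 0.11 (SE, adjusted p = 0.86), and for Pou2f2 -0.44 ± 0.26 (SE, adjusted p = 0.424), and neither passed.

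The order itself was read from the log2 ratio of summed Onecut UMIs to the summed UMIs of later factors, with no test since it is a score over the members. In the temporal code, an earlier position means more Onecut relative to the later factors. Within both placodal lineages here, however, Onecut over Nfi was higher in late than in early cells in every library. Its control mean was 2.28 in early and 4.41 in late ganglion neurons, and -1.12 and 4.62 in early and late epibranchial neurons. A higher ratio there thus went with more mature cells by the stage score. Onecut over Pou2f2 and the Zfhx genes, a ratio added after seeing the data, was 3.27 and 2.13 in control 1 and control 2 and 4.30 and 4.80 in cKO 1 and cKO 2 in neural tube neurons. Both cKO libraries were above both controls, which also held in each of the 2 clusters. In early ganglion neurons the ratio was 0.0082 and -0.41 in control 1 and control 2 and -1.36 and -1.87 in cKO 1 and cKO 2, so the cKO libraries were lower. The late ganglion ratio overlapped, at 1.42 and 1.36 in control 1 and control 2 and 1.36 and 1.16 in cKO 1 and cKO 2. In late epibranchial neurons it was -0.13 and -0.44 in control 1 and control 2 and 0.86 and 0.79 in cKO 1 and cKO 2, with cKO higher, and early epibranchial neurons were at -1.94 and -2.47 in control 1 and control 2 and -1.85 and -1.16 in cKO 1 and cKO 2, also higher.

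Onecut over Nfi, the ratio named in the question, was higher in cKO in both late placodal groups and overlapped elsewhere. In neural tube neurons it was 9.03 and 9.94 in control 1 and control 2 and 9.10 and 9.51 in cKO 1 and cKO 2, with overlap, and rests on 4 to 7 Nfi UMIs per library. It was 2.79 and 1.78 in control 1 and control 2 and 1.92 and 1.32 in cKO 1 and cKO 2 in early ganglion neurons, with overlap. In late ganglion neurons it was 4.64 and 4.18 in control 1 and control 2 and 4.80 and 4.94 in cKO 1 and cKO 2, with the cKO libraries above the controls on 15 to 294 Nfi UMIs. Early epibranchial neurons gave -0.77 and -1.47 in control 1 and control 2 and -0.91 and -0.015 in cKO 1 and cKO 2, with overlap. In late epibranchial neurons it was 4.94 and 4.30 in control 1 and control 2 and 6.01 and 6.76 in cKO 1 and cKO 2, with cKO higher on 15 and 19 Nfi UMIs in the cKO libraries. With all ganglion stages summed, Onecut over Nfi was instead lower in cKO without overlap, at 3.89 and 3.49 in control 1 and control 2 and 3.15 and 2.55 in cKO 1 and cKO 2. These sums held 55.6% and 68.3% late cells in control 1 and control 2 and 26.1% and 23.5% in cKO 1 and cKO 2. The part of that share in the ratio was not tested.

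The ratio of Pou2f2 and Zfhx to Nfi gave yet other directions. In neural tube neurons it was 5.76 and 7.82 in control 1 and control 2 and 4.80 and 4.71 in cKO 1 and cKO 2, so cKO was lower, on the same 4 to 7 Nfi UMIs. Early ganglion neurons were at 2.78 and 2.19 in control 1 and control 2 and 3.28 and 3.19 in cKO 1 and cKO 2, with cKO higher on 75 to 259 Nfi UMIs. It was 3.22 and 2.82 in control 1 and control 2 and 3.45 and 3.79 in cKO 1 and cKO 2 in late ganglion neurons, also higher in cKO. Early epibranchial neurons overlapped, at 1.17 and 1.0 in control 1 and control 2 and 0.94 and 1.15 in cKO 1 and cKO 2, and late ones were at 5.07 and 4.74 in control 1 and control 2 and 5.15 and 5.97 in cKO 1 and cKO 2, higher in cKO. The 3 ratios thus gave cKO neurons no single place in the order. They are not 3 separate readings, since they share the same UMI sums and any 1 of them is fixed by the other 2. Late epibranchial cKO cells were above controls in each ratio, neural tube and early ganglion cKO cells were above controls in 1 ratio and below them in another, and the other groups overlapped in 1 or 2 ratios.

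**Figure D4:**
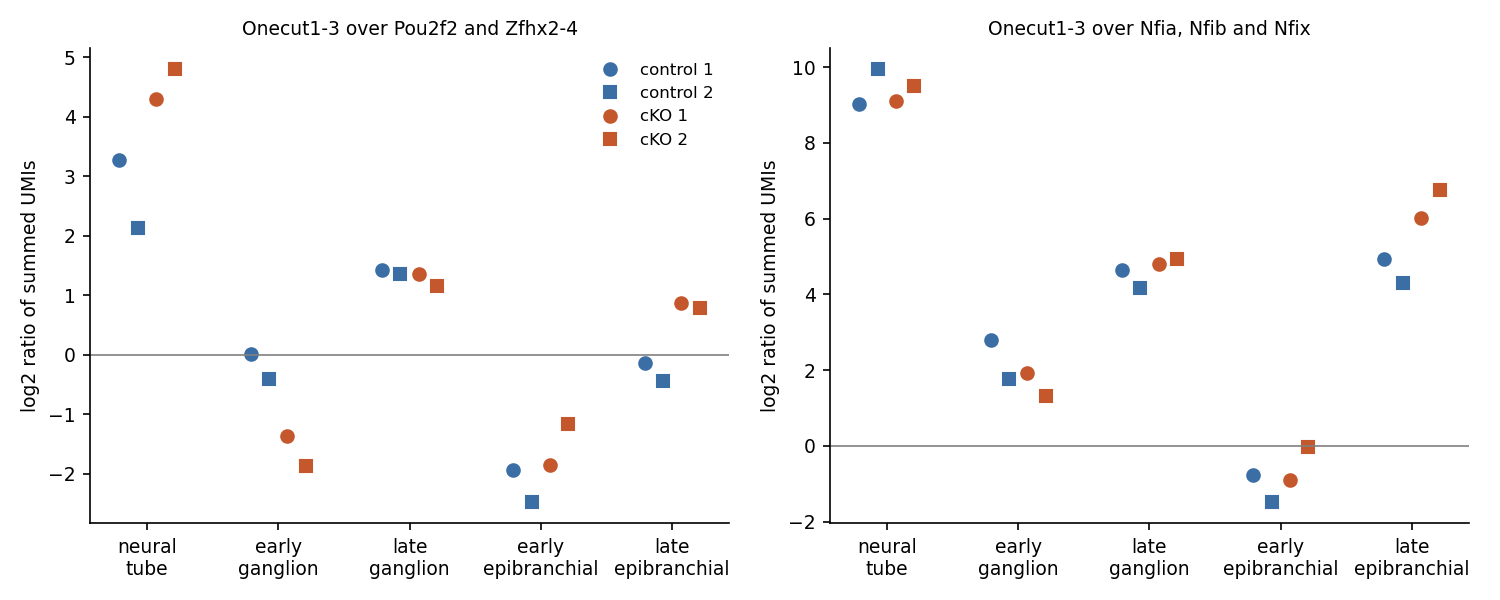
Log2 ratio of summed Onecut1-3 UMIs to Pou2f2 and Zfhx2-4 (left) and to Nfia, Nfib and Nfix (right), 1 point per library in 5 groups of neurons. In the left panel the cKO points lie above the control points in neural tube and both epibranchial groups and below them in early ganglion neurons, and in the right panel they overlap in 3 of 5 groups.

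Other genes of the temporal code moved in ganglion neurons. Of 5 companions of the late window, all 5 fell across ganglion stages, where 19% of all genes tested fell. Their median log2 change was -1.56 against -0.018 for all genes. Neurod2 (-3.38, adjusted p = 0.000867), Neurod6 (-2.72, adjusted p = 0.00428), Rbfox3 (-1.56, adjusted p = 0.000133) and Nfic (-1.37, adjusted p = 0.00141) had the largest changes. Neurod2 and Neurod6, basic helix-loop-helix factors, were low even in controls: Neurod2 was at 2.74 and 3.03 CPM in controls and 0.275 and 0.165 CPM in cKO. Late cells alone, where 9.35% of genes fell, kept 3 of the 5 measured there as fallen (Neurod2, Rbfox3 and Tcf4). In epibranchial neurons (12.6% of genes fell) 3 of the 5 were measured and none passed. In neural tube neurons (2.84% fell) 2 were measured and none passed, at edgeR's adjusted p.

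Of 9 heterochronic genes, which mark young progenitors, 3 rose and none fell across ganglion stages, where 18.6% of all genes tested rose: Hmga2 (0.86, adjusted p = 0.00092), Hmga1 (0.84, adjusted p = 0.0103) and Igf2bp3 (0.30, adjusted p = 0.0224). Hmga2, a chromatin protein that declines with age, was at 63 and 53.6 CPM in controls and 102 and 109.8 CPM in cKO. In early cells alone Hmga2 was at 110 and 128 CPM in controls and 123 and 128 CPM in cKO and did not pass (0.078, edgeR's adjusted p = 0.54). In late cells it was at 20.4 and 14.8 CPM in controls and 26.4 and 33.8 CPM in cKO. The all-stage sums held a smaller share of late cells in cKO, and the part of that share in these changes was not tested. In late ganglion cells (10.4% of genes rose) Hmga1 and Hmga2 rose, and in early cells (15.8%) Igf2bp3 rose and Igf2bp2 fell. Nr6a1, a nuclear receptor of early embryos, was the 1 gene of the list to pass in neural tube neurons (2.69% of genes rose), at 68.9 and 44.6 CPM in controls and 83.4 and 90.6 CPM in cKO and 0.64 (adjusted p = 0.0316). It rose as well in early (0.82, adjusted p = 0.0204) and late (0.58, adjusted p = 0.0336) epibranchial neurons, where Lin28a also rose in late cells (0.53, adjusted p = 0.0377).

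TGF-beta signalling, known to advance the temporal code in the neural tube, was followed with 8 genes. Tgfb2, a ligand, fell across ganglion stages from 52.7 and 44.2 CPM to 5.23 and 7.41 CPM, a change of -2.91 (adjusted p = 5.86e-05). Smad3, an effector, rose in these sums (1.16, adjusted p = 0.00818), while the other 4 measured did not pass. In early ganglion neurons alone Smad3 was at 8.12 and 6.66 CPM in controls and 9.47 and 8.64 CPM in cKO. It did not pass there (0.28, edgeR's adjusted p = 0.296), and it was not measured in late ones. In early epibranchial neurons Tgfb2 (-1.17, adjusted p = 0.0082) and Tgfbr1, a receptor (-0.40, adjusted p = 0.0418), fell. None of the 3 measured in neural tube neurons passed. Of 7 related CUT, POU2, NFI and zinc finger homeobox genes outside the members (Nfic is on both lists), 6 were measured in early ganglion neurons. Of these, 5 fell, where 14% of genes fell, with the largest changes in Nfic, Cux2, Adnp2 and Cux1. None passed in late ganglion or neural tube neurons, where 9.35% and 2.84% of genes fell. In late epibranchial neurons, where 5.97% of genes fell, Pou2f1 fell (-0.58, edgeR's adjusted p = 0.035).

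Across cell classes, each member had its own range, given as the lowest and highest CPM of the 4 libraries. Onecut2 ranged over 1458 to 1774 CPM in neural tube neurons, 88.5 to 208 in epibranchial neurons, 23.9 to 184 in ganglion neurons and 1.33 to 3.22 in mesenchyme, and the epibranchial and ganglion ranges overlap. Pou2f2 ranged over 64.6 to 109 CPM in leukocytes and 6.31 to 100.3 in neural tube neurons, also overlapping, and 1.19 to 1.52 in otic epithelium. Zfhx3 ranged over 166 to 247 CPM in surface ectoderm, 112 to 224 in otic epithelium and 8.84 to 100.3 in neural tube neurons. Zfhx4 ranged over 72.6 to 167 CPM in mesenchyme and 22.7 to 46.8 in surface ectoderm. Nfib ranged over 37.5 to 122 CPM in endothelium and 4.33 to 6.79 in ganglion neurons. Onecut1, a neuronal gene in these libraries, ranged over 201 to 288 CPM in neural tube neurons and 0.182 to 0.345 in otic epithelium.

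The decreases of Zfhx and NFI genes were not limited to neurons. In mesenchyme, connective tissue precursors of the pharyngeal region, 6 of 6 measured members fell, where 2.9% of 10367 genes fell. Zfhx4 stood at 164 and 146 CPM in control 1 and control 2 and at 78.4 and 75.7 CPM in cKO 1 and cKO 2, with no overlap and a change of -1.0 ± 0.11 (SE, adjusted p = 0.000883). Nfia stood at 9.69 and 13.3 CPM in control 1 and control 2 and at 1.76 and 3.35 CPM in cKO 1 and cKO 2, and changed by -2.28 ± 0.36 (SE, adjusted p = 0.00606). Nfib (-1.49, adjusted p = 0.00471), Zfhx3 (-1.21, adjusted p = 0.000395), Zfhx2 (-1.24, adjusted p = 0.0174) and Pou2f2 (-2.0, adjusted p = 0.0483) fell as well. The Pou2f2 call rested on 29, 15, 13 and 1 UMIs in control 1, control 2, cKO 1 and cKO 2, with controls at 7.80 and 3.26 CPM. Classes outside neurons were fitted in the main setting only, so their calls were not checked with DESeq2 or with a library left out. In otic epithelium, the wall of the vesicle, 5 of 8 measured members fell, where 20.5% of 15155 genes fell. Zfhx3 was at 196 and 209 CPM in controls and 119 and 133 CPM in cKO there and Nfia at 7.71 and 11.8 CPM in controls and 3.15 and 4.05 CPM in cKO, with changes of -0.68 (adjusted p = 0.000473) and -1.41 (adjusted p = 0.00124).

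In surface ectoderm 3 of 5 measured members fell (Zfhx2, Zfhx3 and Zfhx4), with adjusted p from 0.0365 to 0.0499 (edgeR), where 2.83% of genes fell. In neural tube progenitors none of 6 measured members passed, where 0.527% of genes fell, and Zfhx2 was at 32.3 and 38.8 CPM in controls and 18.4 and 16.1 CPM in cKO with -0.99 (adjusted p = 0.0766). In leukocytes none of 3 passed, where 1.73% of genes fell, and Zfhx3 was at 63.4 and 52.9 CPM in controls and 62.2 and 61.2 CPM in cKO, a change of 0.076 (adjusted p = 0.831). Differences between these classes were not tested. In neurons and these classes, a change in level per cell and a change in the mix of cells within a class cannot be told apart from such sums.

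**Figure D5:**
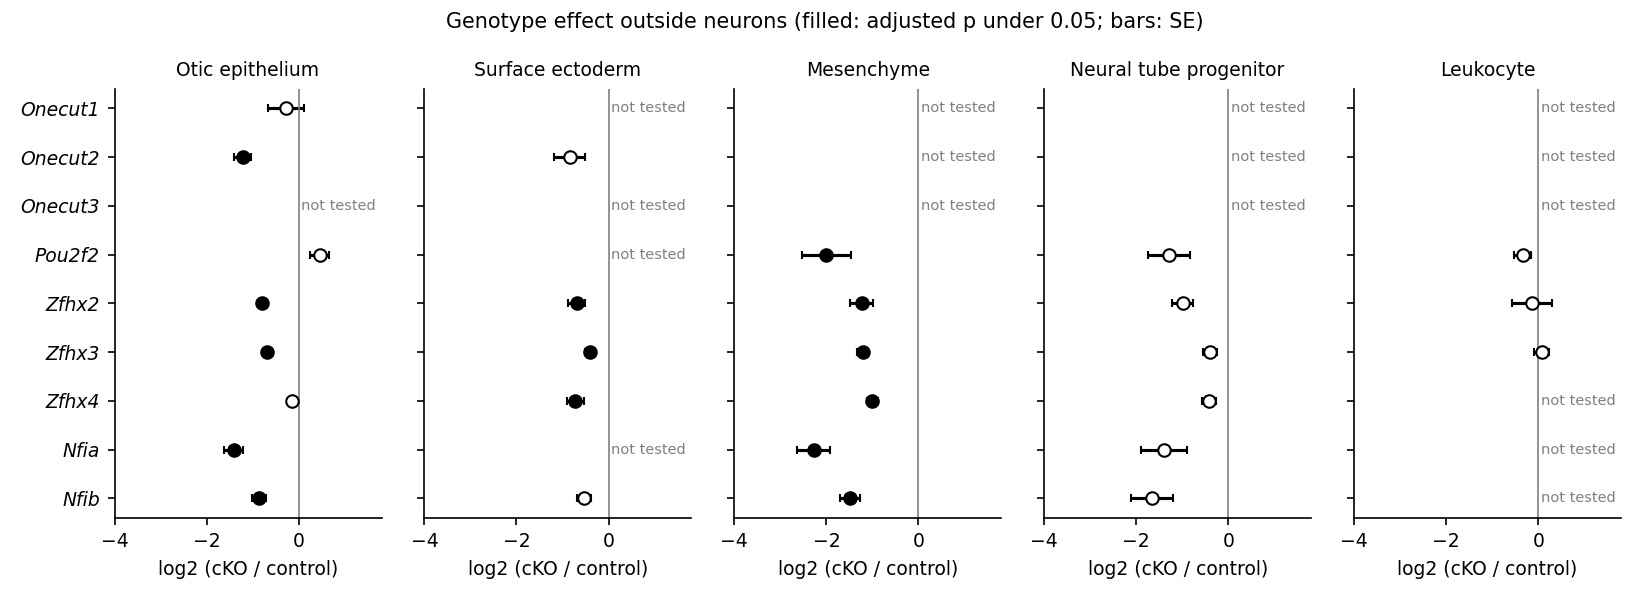
Log2 change (cKO over control) of the members in 5 classes outside neurons, with the SE as a bar, filled where the adjusted p was under 0.05. The 6 tested members are filled and below 0 in mesenchyme, and no point is filled in neural tube progenitors or leukocytes.

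Gene length moved with genotype in every group of neurons. Among the longest of 5 equal classes of genes by genomic span, the median log2 change was -0.10 in neural tube neurons and -0.24 in ganglion neurons, against 0.098 and 0.061 among the shortest. The longest class began at 74572 bases in neural tube neurons. Zfhx3 spans 1018987 bases, Nfib 415578, Nfia 346141, Zfhx4 197332, Nfix 100469 and Pou2f2 92383, all above that bound. Onecut2 spans 60968 bases, Zfhx2 32063, Onecut1 29861 and Onecut3 22442, all below it. Of the members that fell in neural tube neurons, Pou2f2, Zfhx3 and Zfhx4 were thus in the longest class and Zfhx2 was not. The part of length in the results was not tested.

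The genes most like the summed Onecut genes over the 5 neuron groups in 4 libraries (20 points, among 7954 genes of at least 10 CPM on average) were Lingo1 (Pearson r = 0.977), Gnai1 (Pearson r = 0.964), Zfp811 (Pearson r = 0.962), Rnf24 (Pearson r = 0.957) and Csrnp3 (0.956), on log2(CPM + 1). Lingo1, a membrane protein of neurons, ran from 1.5 to 61.9 CPM. Among those most like the summed NFI genes were Mybpc1 (r = 0.899), Eif5b (r = 0.899), Fyco1 (r = 0.888) and Spty2d1 (0.869). The 20 points share libraries and cell groups, so these values are descriptions.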

How the data were processed

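Per the labels' protocols, cells were captured with the 10x Chromium 3′ kit. The authors deposited raw UMI counts per gene and barcode. Per the file headers the matrices come from Cell Ranger 6.0.1, but its version in the submitters' processing notes is 3.1.0, beside FastQC 0.11.4, Seurat 4.1.0 and mm10. Of the gene identifiers, 99.6% were in GENCODE vM21.

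Cells with at least 1000 genes and at most 10% mitochondrial UMIs were kept. Scrublet's automatic threshold marked 0 to 5 cells per library, so the highest-scoring 0.8% per 1000 barcodes was removed. Cells were clustered in scanpy 1.11.5 and leidenalg 0.10.2 without the members among the variable genes (2000 genes, 30 components, 20 neighbours, resolution 1, 31 clusters) and named from marker lists, under a naming rule settled after the clusters were seen. Early and late cells were split at the median stage score with libraries weighted equally, and 174 ganglion and 68 epibranchial cells lay within 0.25 of the split. Epibranchial stage bins had edges of their own.

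Counts were summed per library and group and fitted across all genes with edgeR 4.0.16 (filterByExpr, TMM, quasi-likelihood test, prior count 1, Benjamini-Hochberg, 0.05). The libraries are the replicates. On simulated data for neural tube neurons, 93 of 100 genes changed 2-fold were recovered, with 7 false calls among 200. The simulation gave every gene the same low dispersion and changed only genes with at least 200 UMIs over the libraries. Its rates do not carry over to genes as uneven between controls as Pou2f2, at 26.1 and 99.9 CPM. Alternatives were RLE size factors, DESeq2 1.42.0, no filter on low counts, a replicate block, each library left out, other cell filters, resolution and stage definitions. The members and gene lists were chosen with earlier results of these data known. Named genes were the members, the 5 genes most like each end of the order, and up to 4 passing genes per list. A few results that this rule or the marker lists would name are not reported here.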

Additional observations from a re-analysis of the deposited data

Results flagged for a closer look

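The following results are singled out because the genotype effect differed between ganglion and epibranchial neurons by an interaction test (edgeR, adjusted over 13523 genes). The difference, ganglion less epibranchial on the log2 scale, was -1.51 for Onecut1, which changed by -1.59 (adjusted p = 0.000241) in ganglion and -0.11 (adjusted p = 0.587) in epibranchial neurons. It was -1.86 for Onecut2, which changed by -2.57 (adjusted p = 5.92e-05) and -0.70 (adjusted p = 0.0192) in the same order. For Zfhx3 it was 0.89, from changes of -0.24 (adjusted p = 0.0757) and -1.15 (adjusted p = 0.000988). For Nfia it was -0.889, from changes of -2.11 (adjusted p = 0.000917) and -1.21 (adjusted p = 0.00975), and the call of this difference was lost in the settings given above. The share of late cells, lower in cKO in both lineages, is given above, and its part in these differences was not tested.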

How the results depend on the processing

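Over the settings that kept all libraries, 560 of 602 member values kept their side of the threshold, 14 calls were lost and 27 were gained. In 1 case a call of the main fit reversed its sign (Onecut1 in early epibranchial neurons, -0.0038 with 3 stage groups). Values that passed in neither fit count as kept even where their sign changed. Nfib in all ganglion neurons, for example, was at 0.067 in the main fit and -0.51 in the shared clusters. With 1 library left out, 233 of 263 held, 20 were lost and 10 gained. For Pou2f2 and the Zfhx genes in neural tube neurons, 61 of 64 held. Members called changed by over 1.5 times in neural tube neurons with DESeq2 (2 in place of 4) and in the En1 and Otp cluster alone (7). Without the filter on low counts they were 7 in late ganglion and 8 in all epibranchial neurons. With 1 library left out they ranged over 2 to 6 in late ganglion neurons (fewest without cKO 2), 2 to 7 in epibranchial neurons (fewest without control 2) and 2 to 5 in the interaction (fewest without cKO 2). Genes called with DESeq2 were 1902 (early ganglion), 1221 (late ganglion), 1653 (all epibranchial), 402 (early epibranchial), 650 (late epibranchial), 128 (neural tube) and 310 (interaction), against 3532, 2236, 3116, 1139, 1427, 522 and 670 with edgeR. Without the filter they were 1738 in early and 2204 in late epibranchial neurons and 1403 in the interaction. Late ganglion neurons gave 1082 with 3 stage groups and 696 in shared clusters. Neural tube neurons gave 102 without doublet removal, 148 in the Robo3 and Lbx1 cluster, 188 in younger and 311 in older cells. With 1 library left out the genes called ranged over 2973 to 5208 (all ganglion), 2028 to 2139 (early ganglion), 566 to 2219 (late ganglion), 137 to 3910 (all epibranchial, fewest without control 2), 317 to 1361 (early epibranchial), 806 to 1870 (late epibranchial), 188 to 792 (neural tube) and 203 to 1172 (interaction). The difference in the Onecut to Nfi ratio of late ganglion neurons was 0.47, and 0.22 with the stage from maturation genes alone. Fewer cells or genes enter the single-cluster, stage and low-count settings by construction, and for the others the cause was not tested.

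Same-numbered libraries correlated at r = -0.048 to 0.062 over genes, so the replicate numbers share only a number. With the replicate block, 290 genes were called in neural tube neurons and members called went from 4 to 4 there, from 5 to 6 in all epibranchial neurons, from 4 to 5 in early and 5 to 6 in late epibranchial neurons and from 7 to 7 in all ganglion neurons.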
